A study of Mus musculus with 24 samples.

Results

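The level of 10 genes that mark Kupffer cells, the resident macrophages of the liver, was described in RNA of isolated mouse hepatocytes, as a measure of macrophage RNA carried over into these preparations. The genes were chosen by symbol as known markers of these cells, with earlier results of these data known: Clec4f, Timd4, Vsig4, Cd5l, Marco, C1qa, C1qb, C1qc, Adgre1 and Csf1r. They were 10 of the 55421 genes in the count table, and all 10 had enough counts to be among the 13583 genes tested. PolyA RNA was sequenced from male mice in 4 groups of 6, each on its diet for 9 weeks. The labels give young mice as C57BL/6N aged 6 months and old mice as C57BL/6J aged 24 months, so an effect of age cannot be told apart from one of substrain. The young ND and old ND groups ate a normal diet, a Teklad chow in the labels and a defined low-fat diet in the paper. The young HFD and old HFD groups ate a high-fat diet, 58Y1, with 60% of its energy from fat. The paper gives ages for these groups that differ from the labels. None of the groups carried a transgene or a drug according to the labels.

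Kupffer cells line the liver sinusoids, the capillaries between plates of hepatocytes, and clear particles, bacteria, dead cells and iron from blood. Those seeded before birth renew themselves, and blood monocytes can replace them after loss and take up most of the same genes. Hepatocytes do not make these markers to any large extent, and their preparation by collagenase perfusion, low-speed washes and a Percoll gradient was meant to leave other liver cells behind. In RNA from many cells, fewer cells of a type and less RNA per cell cannot be told apart.

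All 10 markers were detected in every group, at levels that differed widely between mice of the same group. Their summed level in young ND was 1.75 CPM (counts scaled to each library's total, with TMM size factors) in the lowest mouse, 27.4 at the median and 87.0 in the highest. The same values were 15.4, 113 and 225 CPM for young HFD mice, 54.4, 109 and 1425 CPM for old ND mice and 71.8, 122 and 724 CPM for old HFD mice. Every group overlapped every other on this sum. The 24 libraries held between 9200332 and 22185069 counted reads, and the 10 markers together held between 26 and 17439 of them. The markers of hepatocytes themselves were abundant throughout: 8 defining genes, Alb and Apoa1 among them, summed to between 47608 and 162424 CPM.

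Several libraries stood apart before any comparison was made. The titles place each mouse in batch 1 or batch 2 without saying what a batch was, and each holds 3 mice of a group, old ND aside, which had 2 mice in the first and 4 in the second. In young ND, the 3 mice of batch 1 had a summed level of 1.75 to 4.77 CPM, and the 3 mice of batch 2 had 50.1 to 87.0 CPM. Within old ND of batch 2, replicates 3 and 4 reached 938 and 1425 CPM, whereas replicates 5 and 6 had 113 and 66.3 CPM. Old ND replicate 4 also had the lowest hepatocyte sum, 47608 CPM, and the next mouse had 78257. Counts of markers called in old ND or young HFD against young ND are given with and without old ND replicates 3 and 4. They are also given without the young mice of batch 1.

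**Figure D1:**
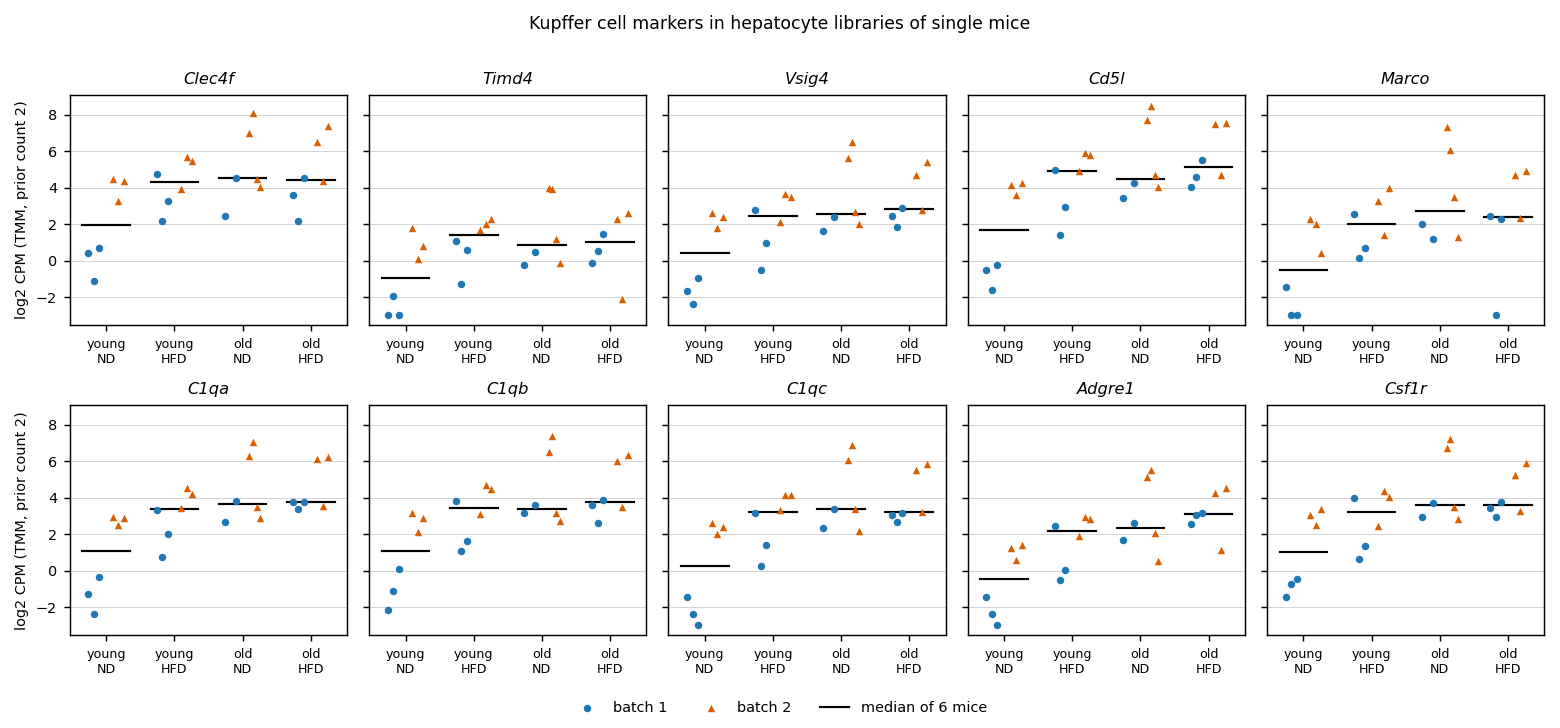
Level of each marker in each of the 24 mice, as log2 CPM with a prior count of 2 (vertical axis), by group (horizontal axis), with circles for batch 1, triangles for batch 2 and a line at the median of the 6 mice. The 3 circles of young ND lie below every other batch 1 mouse in 9 of 10 panels, the exception being Marco, and old ND replicates 3 and 4 are the highest pair of mice in 9 of 10, the exception being Clec4f.

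Clec4f encodes a C-type lectin made almost solely by Kupffer cells in the mouse. Its level was 0.336, 5.46 and 22.4 CPM (lowest, median and highest of 6 mice) in young ND mice, against 4.46, 20.8 and 51.4 CPM for young HFD, 5.23, 22.6 and 275 CPM for old ND and 4.38, 21.5 and 164 CPM for old HFD. The 3 groups other than young ND had medians close to each other, and all ranges overlapped. The 3 young ND mice of batch 1 held 26, 5 and 22 Clec4f reads.

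Timd4, a phosphatidylserine receptor for dead cells that marks Kupffer cells of embryonic origin, was the lowest of the 10 markers. Its level was 0, 0.526 and 3.28 CPM in young ND mice, against 0.283, 2.54 and 4.74 CPM for young HFD, 0.706, 1.71 and 15.8 CPM for old ND and 0.107, 1.98 and 5.90 CPM for old HFD. No Timd4 read was counted in young ND replicates 1 and 3, which allows up to 0.135 and 0.182 CPM on raw totals, from counting error alone. Old HFD replicate 5 held a single Timd4 read beside 189 of Clec4f.

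Vsig4 encodes a complement receptor that captures bacteria from blood. It ran from 0.067 to 6.09 CPM in young ND, with a median of 1.83, and from 0.565 to 12.4 CPM in young HFD, with a median of 5.54. It ran from 2.97 to 90.7 CPM in old ND (median 5.68) and from 3.46 to 42.2 CPM in old HFD (median 6.95). Vsig4 followed the other markers most closely. The Pearson correlation of its log2 CPM with the mean of the other 9 markers was 0.989 over 24 mice, and 0.980 after group and batch means were removed. The labels do not say which mice shared a preparation or a sequencing run, so the value describes these libraries.

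Cd5l, a secreted scavenger protein, and Marco, a scavenger receptor for bacteria and particles, differed in how closely they followed the other markers. Cd5l was 0.201, 6.32 and 19.3 CPM in young ND mice, against 2.54, 30.3 and 59.5 CPM for young HFD, 10.9, 22.4 and 362 CPM for old ND and 15.99, 35.8 and 185 CPM for old HFD. Marco was 0, 0.734 and 4.76 CPM in young ND mice, against 0.961, 4.15 and 15.4 CPM for young HFD, 2.18, 7.48 and 158 CPM for old ND and 0, 5.08 and 29.9 CPM for old HFD. Marco had the lowest correlation with the other markers, 0.868 over 24 mice and 0.655 after group and batch means were removed. It took 16.8% of all marker reads in old ND replicate 3 and none in old HFD replicate 2, where Cd5l took the highest share of any mouse, 33.7%.

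C1qa, C1qb and C1qc encode the A, B and C chains of C1q, the part of complement that binds immune complexes and dying cells. The 3 genes lie side by side on the minus strand of chromosome 4 (GRCm38, chr4:136880129-136898803), within 18675 bases. C1qa had medians of 3.08 and 10.3 CPM in the young groups, ND before HFD, and 12.6 and 13.5 CPM in the old groups. C1qb had medians of 2.56, 11.3, 10.4 and 13.3 CPM, and C1qc of 2.10, 9.40, 10.3 and 9.18 CPM, in the same order. In all 3 genes young ND had the lowest median, and the highest mouse was old ND replicate 4. In the 21 mice that held at least 100 marker reads, C1qa took 7.82 to 15.3% of them, C1qb 7.77 to 16.4% and C1qc 6.36 to 10.04%.

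Adgre1, which encodes the F4/80 antigen used to stain mouse macrophages, had medians of 0.806, 4.52, 5.10 and 8.42 CPM for young mice on ND and HFD and then old mice on ND and HFD. Csf1r, the receptor for the survival factors CSF1 and IL-34, had medians of 3.08, 10.7, 12.1 and 12.1 CPM in that order. Csf1r exons overlap those of Hmgxb3 on the opposite strand, and the strand setting of the counting is not given in the sources used here, so its reads are uncertain to that extent. Per kilobase of exon, Cd5l had the highest median in young ND, young HFD and old HFD, and C1qa did in old ND, at 12.1 CPM per kilobase against 11.01 for Cd5l. Timd4 was last in all 4 groups, between 0.242 and 1.17 CPM per kilobase. Cd5l, C1qa, C1qb and Clec4f filled the first 4 places in every group, and the ranges of these neighbours overlapped.

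Promoter sequences matched by symbol for 7 of the 10 genes, and 4 of them are shown. Whether promoters bear on the shared movement of the markers across mice was not tested. The sequences are from RefSeq (GRCm38.p6) and cover the 250 bases before the start of transcription, written 5′ to 3′ on the gene's strand. Capitals mark GAGGAA and GGAAGT, or their reverse complements TTCCTC and ACTTCC, short forms of the site of PU.1, a transcription factor of macrophages. The 2 motifs can overlap.
Vsig4, minus strand, chrX:96293439-96293688: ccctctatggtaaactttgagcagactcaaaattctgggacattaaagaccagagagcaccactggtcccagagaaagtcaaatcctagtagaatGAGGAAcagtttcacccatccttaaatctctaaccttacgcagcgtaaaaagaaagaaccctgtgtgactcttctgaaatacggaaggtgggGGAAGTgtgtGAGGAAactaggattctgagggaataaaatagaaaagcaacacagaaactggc
Timd4, plus strand, chr11:46810549-46810798: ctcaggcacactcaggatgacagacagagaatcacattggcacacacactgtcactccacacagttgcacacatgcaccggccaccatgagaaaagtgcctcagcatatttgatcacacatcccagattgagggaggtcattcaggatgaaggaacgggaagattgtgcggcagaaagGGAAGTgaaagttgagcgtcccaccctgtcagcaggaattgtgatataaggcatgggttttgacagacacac
Cd5l, plus strand, chr3:87357631-87357880: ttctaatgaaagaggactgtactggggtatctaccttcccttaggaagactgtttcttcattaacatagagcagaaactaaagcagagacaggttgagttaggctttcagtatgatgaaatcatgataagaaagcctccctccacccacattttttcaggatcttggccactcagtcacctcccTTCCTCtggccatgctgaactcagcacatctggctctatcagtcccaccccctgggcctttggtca
Marco, minus strand, chr1:120505025-120505274: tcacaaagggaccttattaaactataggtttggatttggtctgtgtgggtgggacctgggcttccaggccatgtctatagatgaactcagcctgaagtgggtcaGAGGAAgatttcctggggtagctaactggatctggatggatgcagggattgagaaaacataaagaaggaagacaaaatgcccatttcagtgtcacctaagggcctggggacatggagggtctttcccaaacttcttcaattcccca
GAGGAA was in 5 of the 7 promoters, Marco, Cd5l, C1qb, C1qc and Vsig4, and in 23.3% of all 32817 promoters of this length. GGAAGT was in 5 of the 7, C1qb, C1qc, Clec4f, Timd4 and Vsig4, and in 19.7% of all promoters. At least 1 of these motifs was in 7 of 7 and in 36.7% of all promoters. A match of letters is a description and not a binding site.

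Each comparison asks whether age or diet changed the amount of Kupffer cell RNA in the hepatocyte preparations. Counts were fitted with edgeR's quasi-likelihood test over all 24 mice with group and batch as terms, and p-values were adjusted by Benjamini-Hochberg over the 13583 genes. The labels name no litter or day of preparation for the mice, and p-values measure the spread between these libraries.

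All 10 markers were higher in old ND, compared with young ND. Of all genes tested, 7.26% were called higher in this comparison. The median log2 fold change of the markers was 3.53, and that of all genes was 0.01. The edgeR adjusted p ranged from 0.00328 for C1qa and C1qc to 0.0453 for Timd4. Marco had a log2 fold change of 4.18 (SE 0.92, adjusted p = 0.00641), C1qc 3.71 (SE 0.69), C1qa 3.46 (SE 0.64), Clec4f 2.97 (SE 0.70, adjusted p = 0.0102) and Timd4 2.48 (SE 0.77). The other 5 lay between 3.17 for Vsig4 and 3.74 for Adgre1. No marker separated the 6 old mice from the 6 young mice without overlap, and 2.08% of all genes did so with old ND higher. Timd4 lost its call in 14 of the 24 fits that left out a single mouse, whereas the other 9 kept theirs.

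This difference rested on few mice and differed in size between the batches. In batch 1 alone, log2 fold changes were 3.79 to 5.98, 6 markers were called, against 0.679% of all genes called higher, and for all 10 both old ND mice lay above the 3 young ND mice, which held 0 to 26 reads per marker. Of all genes, 20.4% separated these 5 mice in that direction. In batch 2 alone, log2 fold changes were 2.12 to 4.16, and edgeR called 0 markers, with adjusted p of 0.205 to 0.301. That fit called 2 of 14243 genes in either direction, so its 0 says little about the markers. There, 0 of 10 markers separated the 4 old from the 3 young mice, against 8.89% of all genes. With old ND replicates 3 and 4 left out, the fit over both batches gave log2 fold changes of 0.95 for Timd4 to 2.44 for C1qc and called 0 markers. The lowest adjusted p was then 0.0994, 9 of 10 markers were higher at an unadjusted p under 0.05, against 8.26% of all genes, and 0.417% of all genes were called higher. In batch 2 without these mice, log2 fold changes ran from −0.41 for Timd4 to 0.999, with 0 called. Without the young mice of batch 1, they ran from 1.87 to 3.93, with 0 called. These fits called 2 of 14556 and 12 of 14363 genes in either direction.

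**Figure D2:**
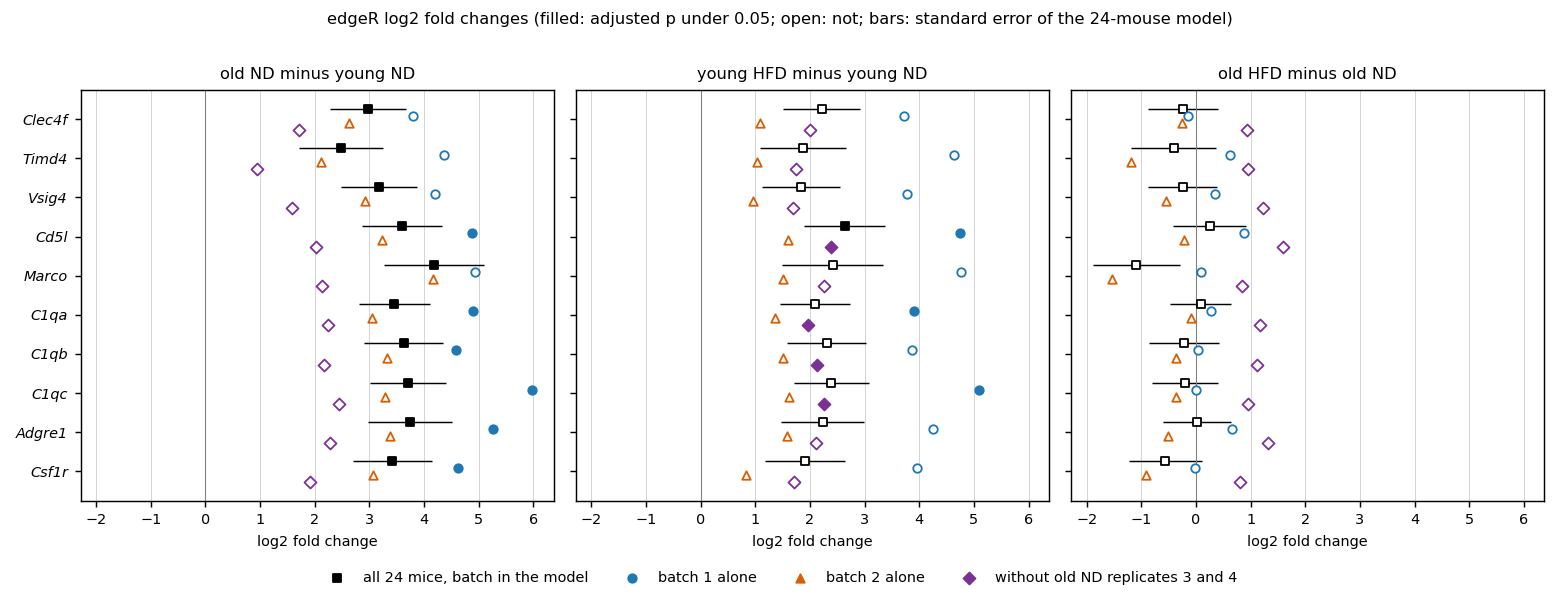
log2 fold change from edgeR (horizontal axis) of each marker (vertical axis) in 3 comparisons, for all 24 mice (squares, with standard errors), batch 1 alone (circles), batch 2 alone (triangles) and without old ND replicates 3 and 4 (diamonds). Filled symbols had an adjusted p under 0.05. In old ND minus young ND the 10 squares are filled and the 10 diamonds are open, and in old HFD minus old ND no symbol is filled.

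Between young HFD and young ND, Cd5l alone passed the test, with a log2 fold change of 2.63 (SE 0.73, edgeR adjusted p = 0.0463). Of all genes tested, 1.91% were called higher. The other 9 markers had log2 fold changes of 1.84 for Vsig4 to 2.42 for Marco, with adjusted p of 0.0545 to 0.163. The median of the 10 was 2.22, that of all genes was 0.01, and all 10 were higher at an unadjusted p under 0.05, against 12.3% of all genes. DESeq2, another count test, called 9 of the 10 and 5.87% of all genes higher, while edgeR without the batch term called 0. Cd5l lost its call in 16 of the 24 fits that left out a single mouse. In batch 1, all 10 markers separated the 3 young HFD from the 3 young ND mice, all with young HFD higher, against 14.97% of all genes in that direction, with log2 fold changes of 3.73 to 5.08. In batch 2, 4 markers separated them, Adgre1, C1qa, C1qc and Cd5l, again with young HFD higher, against 12.54% of all genes in that direction. The log2 fold changes of the markers there were 0.83 to 1.61. The edgeR fit of batch 2 called 0 markers (lowest adjusted p 0.688) and 9 of 14243 genes in either direction. Young ND is the control of this comparison and of the one by age, so the pair share the near-zero mice of batch 1.

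Between old HFD and old ND, no marker passed edgeR's test, and 0 had an unadjusted p under 0.05. DESeq2 also called 0, and the fit without a count filter called 2 lower, against 1.75% of all genes. The edgeR adjusted p of that fit went down to 2.4e-06, against 0.445 in the main fit, at close log2 fold changes. The genes called higher and lower were 1.37% and 1.64% of those tested. Marker log2 fold changes ran from −1.09 for Marco (SE 0.80) to 0.25 for Cd5l (SE 0.67), with a median of −0.23 and adjusted p of 0.445 to 0.989. The highest mice of both groups were in batch 2. Without old ND replicates 3 and 4, all 10 log2 fold changes were above 0, at 0.80 to 1.60, and 0 markers were called, with adjusted p of 0.167 to 0.549. With all mice, batch 1 alone gave −0.15 to 0.88 and batch 2 alone −1.53 to −0.09.

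Between old HFD and young HFD, edgeR called 0 markers, and 1.82% of all genes were called higher. Log2 fold changes ran from 0.19 to 1.54, with a median of 1.09. C1qa and Adgre1 were higher at an unadjusted p under 0.05, against 12.3% of all genes. They also separated the 3 old from the 3 young mice in batch 1, against 5.15% of all genes, and 0 markers did so in batch 2, against 8.47%. DESeq2 called 0, and the fit without a count filter called 8 higher, against 2.71% of all genes. The edgeR adjusted p of that fit went down to 1.5e-13, against 0.163 in the main fit, at close log2 fold changes. Its calls are not relied on. From young ND to old HFD, 9 of 10 markers were called higher, all but Timd4 (log2 fold change 2.07, adjusted p = 0.0533), against 17.3% of all genes. The median log2 fold change of all 10 was 3.25. In batch 2 alone 0 were called, where 617 of 14243 genes were called in either direction.

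The interaction asks whether the diet difference was of another size in old than in young mice. Its log2 values, the old difference minus the young one, were −3.51 to −2.01, with a median of −2.42. All 10 were below 0 at an unadjusted p under 0.05, against 5.57% of all genes, with the same edgeR adjusted p of 0.531, and 0 of the 13583 genes were called. DESeq2 called 0 of the 10 markers. The fit without a count filter called 10, all below 0, against 1.51% of all genes. Its log2 values, −3.53 to −2.02, were close to those of the main fit, but its edgeR adjusted p were 6.1e-31 to 0.000676. Its calls are therefore not relied on. The values without old ND replicates 3 and 4 were −1.41 to −0.46, with 0 called. In batch 2 alone without these mice all 10 turned direction, to values of 0.12 to 1.37, with 0 called. Leaving out the young mice of batch 1 instead gave −2.45 to −1.15, with 0 called. The median of the markers was −3.87 in batch 1 alone and −1.84 in batch 2 alone.

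The mice of batch 2 had more marker RNA than those of batch 1. All 10 markers were higher in batch 2, by a median log2 of 2.52 (range 1.80 to 3.01), with edgeR adjusted p of 0.000468 to 0.0115. Of all genes, 18.0% were called higher in batch 2. Without old ND replicates 3 and 4, 9 markers were called, against 15.02% of all genes, and the median was 1.97. Without the young mice of batch 1, 8 were called, against 10.4% of all genes, with a median of 2.46, and Adgre1 and Timd4 had adjusted p of 0.133 and 0.0874.

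A ratio of markers within a mouse divides out the total amount of marker RNA in its library. Timd4 to Clec4f and Cd5l to Clec4f were compared in 4 pairs of groups each, as log2 ratios of counts with 0.5 added, by two-sided exact permutation within batches, 8 tests in all. The mean log2 ratio of Cd5l to Clec4f was −0.47 ± 0.54 (SD, n = 6) for young ND mice, 0.10 ± 0.62 for young HFD mice, 0.36 ± 0.49 for old ND mice and 0.91 ± 0.83 for old HFD mice. Old ND exceeded young ND by 0.83 (exact permutation p = 0.0114, adjusted p = 0.0914), by 1.30 in batch 1 and 0.38 in batch 2. It was 0.58 higher in young HFD than in young ND (exact permutation p = 0.025, adjusted p = 0.1), by 0.59 and 0.56 in the 2 batches. Neither passed after adjustment, and the smallest p these designs allow are 0.0029 and 0.005. Without old ND replicates 3 and 4 the difference by age was 0.72 (adjusted p = 0.2, exact permutation). The differences from old ND to old HFD, 0.55, and from young HFD to old HFD, 0.81, had exact permutation p of 0.189 and 0.085. The first was 0.90 in batch 1 and 0.18 in batch 2, and the second 1.61 and 0.0023. For Timd4 to Clec4f, all 4 differences lay between −0.84 and 0.43, with exact permutation p of 0.3 to 0.951. The batches went opposite ways in 3 of the 4: old ND minus young ND was 0.64 in batch 1 and −0.45 in batch 2, old HFD minus old ND 0.60 and −1.61, and old HFD minus young HFD 0.58 and −2.27. Its SD was 1.73 in young ND and 1.76 in old HFD, where single mice had 0 to 2 Timd4 reads, and 0.64 to 0.65 in young HFD and old ND.

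**Figure D3:**
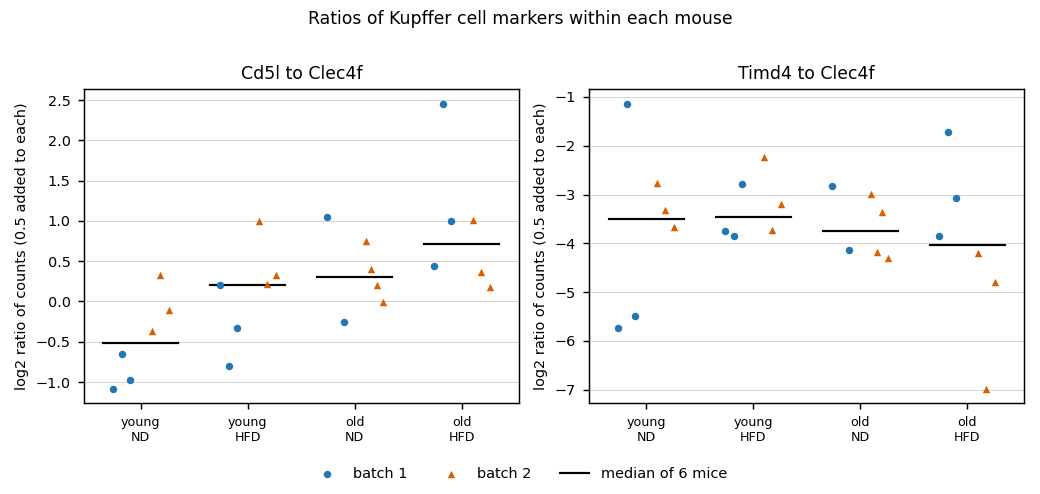
log2 ratio of read counts of Cd5l to Clec4f (left) and Timd4 to Clec4f (right) in each mouse (vertical axis, 0.5 added to each count), by group, with circles for batch 1, triangles for batch 2 and a line at the median of 6 mice. Old HFD replicate 2 is highest for Cd5l, at 2.46, and old HFD replicate 5 is lowest for Timd4.

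The genes whose log2 CPM followed the mean of the markers most closely over 24 mice were Cd84, Msn and Sirpa, with Pearson r of 0.981, 0.979 and 0.976, followed by Tyrobp, Axl, Marcks, Cd300ld, Marcksl1, Laptm5 and Arhgdib. Cd84, Sirpa, Tyrobp and Laptm5 encode proteins of white blood cells. After group and batch means were removed, Cd53, Nckap1l and Cd84 led, at 0.965, 0.957 and 0.955, and Ptprc, which encodes the pan-leukocyte antigen CD45, was at 0.951.

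Genes of 3 other macrophage lists were compared in the same fits. Of all genes, 7.26% were called higher by age, 18.0% in batch 2 and 1.91% by diet in young mice. Of 12 further Kupffer-enriched genes, 9 were higher in old than in young ND mice and 9 in batch 2. Vcam1, an adhesion molecule, had the lowest adjusted p of these by age (log2 fold change 3.61, SE 0.64, edgeR adjusted p = 0.00318). All 12 general macrophage and myeloid genes were higher in old ND, with a median log2 fold change of 3.45, among them Mpeg1, a pore-forming protein of macrophages, at 2.29 (SE 0.37). Of 9 genes of lipid-associated macrophages, 7 were higher in old ND, including Gpnmb, a membrane glycoprotein, at 5.39 (SE 1.02). Between batches edgeR called 0 of these 9, DESeq2 called 2, and 3 had an unadjusted p under 0.05. Leaving out old ND replicates 3 and 4, these counts by age became 0 of 12, 1 of 12 and 1 of 9, against 0.417% of all genes called higher. Mpeg1 (1.45, edgeR adjusted p = 0.0242) and Gpnmb (4.45, edgeR adjusted p = 0.0472) were the genes still called. In young HFD against young ND, 2 of the 12 Kupffer-enriched genes were higher, including Clec1b (2.25, SE 0.61), and 1 of the 12 general genes, Mpeg1 (1.46, SE 0.36). Without old ND replicates 3 and 4 these became 5 of 12 and 1 of 12, and 1 of the 9 lipid-associated genes was called higher and 2 lower, against 2.92% of all genes called higher. Of the 9 lipid-associated genes, 2 were lower, against 1.59% of all genes called lower. Fabp5, a fatty acid binding protein, fell by 2.00 on the log2 scale (SE 0.49, edgeR adjusted p = 0.0255), and Cd9, a tetraspanin that many cell types make, fell by 0.95 (SE 0.21). The summed level of these 9 genes had a median of 48.9 CPM in young ND and 32.6 CPM in young HFD. Their median log2 fold change was 2.38, opposite in sign to both called genes and to the summed level.

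Of 8 genes of Csf1r ligands and macrophage transcription factors, 4 were higher in old than in young ND mice, against 7.26% of all genes. In young HFD 3 were higher and 1 lower, against 1.91% and 1.59% of all genes. Csf1, the growth factor that Csf1r binds, rose from a median of 2.26 CPM in young ND to 5.50 in old ND (log2 fold change 1.62, SE 0.32, edgeR adjusted p = 0.00395) and 5.61 in young HFD (1.30, SE 0.31, adjusted p = 0.0255). Once old ND replicates 3 and 4 were left out, its age difference was 1.03 with an adjusted p of 0.0991, and 0 of the 8 genes were called by age, with 4 at an unadjusted p under 0.05. Il34, the other ligand, had a log2 fold change of 0.71 by age (SE 0.77, adjusted p = 0.643). C1ra and C1s1, which encode the proteases that join C1q to form C1 and which hepatocytes make, had log2 fold changes by age of 0.04 each, with SE of 0.11 and adjusted p of 0.877 and 0.889. Of 5 partner and regulator genes of C1, 0 were called by age by edgeR or by DESeq2, and 0 had an unadjusted p under 0.05. By diet in young mice, both tools called 0 of them, and 1 had an unadjusted p under 0.05. C1ra ran from 212 to 258 CPM in young ND and from 185 to 265 CPM in old ND.

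Markers of other cells were measured beside these results. Shares of all genes called higher were 7.26% by age, 1.91% by diet in young mice and 18.0% in batch 2. Summed CPM of 9 sinusoidal endothelial genes was 13.4 to 35.1 in young ND of batch 1 and 99.0 to 153 in batch 2, 44.1 to 75.0 and 149 to 761 in old ND, and 43.1 to 126 and 159 to 337 in young HFD. All 9 were called higher in batch 2, 5 were higher in old than in young ND mice, and 1, Stab2, a scavenger receptor of these cells, was higher in young HFD (log2 fold change 1.57, SE 0.38). Without old ND replicates 3 and 4, 0 of 9 were called by age and 4 of 9 by diet in young mice. Of all genes, 0.417% and 2.92% were called higher in that fit. The 8 stellate cell genes summed to 5.72 to 15.2 and 46.2 to 68.4 CPM in young ND of batches 1 and 2, and to 88.2 to 107 and 79.9 to 411 CPM in old ND. Of these, 7 were higher in old ND, including Col1a2, a chain of type I collagen, at 3.82 (SE 0.72, adjusted p = 0.00335), and 3.81 without old ND replicates 3 and 4 (adjusted p = 0.0290).

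Genes of blood cells were measured too, and the same shares of all genes apply to the counts called by edgeR. The B and plasma cell sum was 7.45 to 29.3 CPM in the 3 young ND mice of batch 1, above the Kupffer marker sum of each. Monocyte genes passed the count filter in 5 of 8 cases, and all 5 were higher in old ND, as were 3 of 3 tested neutrophil genes, 3 of 5 T and NK cell genes and 3 of 3 B and plasma cell genes. Chil3, a chitinase-like protein of myeloid cells, had a log2 fold change of 6.23 (SE 1.49), S100a9, a calcium-binding protein of neutrophils and monocytes, 5.69 (SE 1.31) and Ccl5, a chemokine of T and NK cells, 4.70 (SE 0.96). T and NK genes summed to 0.464 to 2.55 CPM in young ND of batch 1 and 1.26 to 2.54 CPM in batch 2, so unlike the markers these ranges overlapped between batches. These sums held 7 to 48 reads, and Cd4 alone ran from 0.464 to 2.35 CPM in young ND. Cd3e, Cd3d, Cd8a, Nkg7 and Ccl5 were at 0 in 4 of these 6 mice, so the overlap rests largely on Cd4 and few reads. By batch, edgeR and DESeq2 called 0 of the 5 tested genes, with 0 at an unadjusted p under 0.05. F13a1, Mpo, Gzmk, Cd79a and Cd209a were at 0 in all 6 young ND mice, and Ly6g, which defines neutrophils, was at 0 in all 24. Of 3 tested dendritic cell genes, edgeR called 0 by age, DESeq2 called 1 and 2 had an unadjusted p under 0.05. The 1 tested cholangiocyte gene was called by neither tool by age and had an unadjusted p under 0.05. By diet in young mice, edgeR called 1 of 5 monocyte genes higher, Ccr2, a chemokine receptor (log2 fold change 3.46, SE 0.92), and 1 of 8 stellate genes, Dcn, a matrix proteoglycan (1.56, SE 0.44), where DESeq2 called 4 of 8 and 7 had an unadjusted p under 0.05. Both tools called 0 of the 3 neutrophil, 5 T and NK and 3 B and plasma genes, of which 0, 4 and 0 had an unadjusted p under 0.05. Of the 4, Cd3g, Nkg7 and Ccl5 had log2 fold changes of 2.02 to 2.44 and Cd4 of −1.64. Without old ND replicates 3 and 4, edgeR called 0 of 5 monocyte, 3 neutrophil, 5 T and NK, 3 B and plasma and 9 endothelial genes by age, and 1 of 8 stellate genes. Of these, 2, 1, 4, 3, 2 and 8 in that order had an unadjusted p under 0.05. Of the 8 hepatocyte genes, edgeR and DESeq2 called 0 by age, with 1 at an unadjusted p under 0.05, and 0 by diet in young mice, with 4, of which Cyp2e1 had a log2 fold change of 0.40 and Cps1, Hnf4a and Tat of −0.63 to −0.44. By edgeR, 2 were lower in batch 2. Without the young mice of batch 1, edgeR called 0 genes of any of these lists by age or by diet in young mice, against 0.0836% and 0.0279% of all genes called higher, while 12 of 12 general macrophage, 8 of 9 endothelial and 7 of 8 stellate genes by age, and 1, 2 and 2 of them by diet, had an unadjusted p under 0.05. The part of these other cells in the marker differences was not tested.

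**Figure D4:**
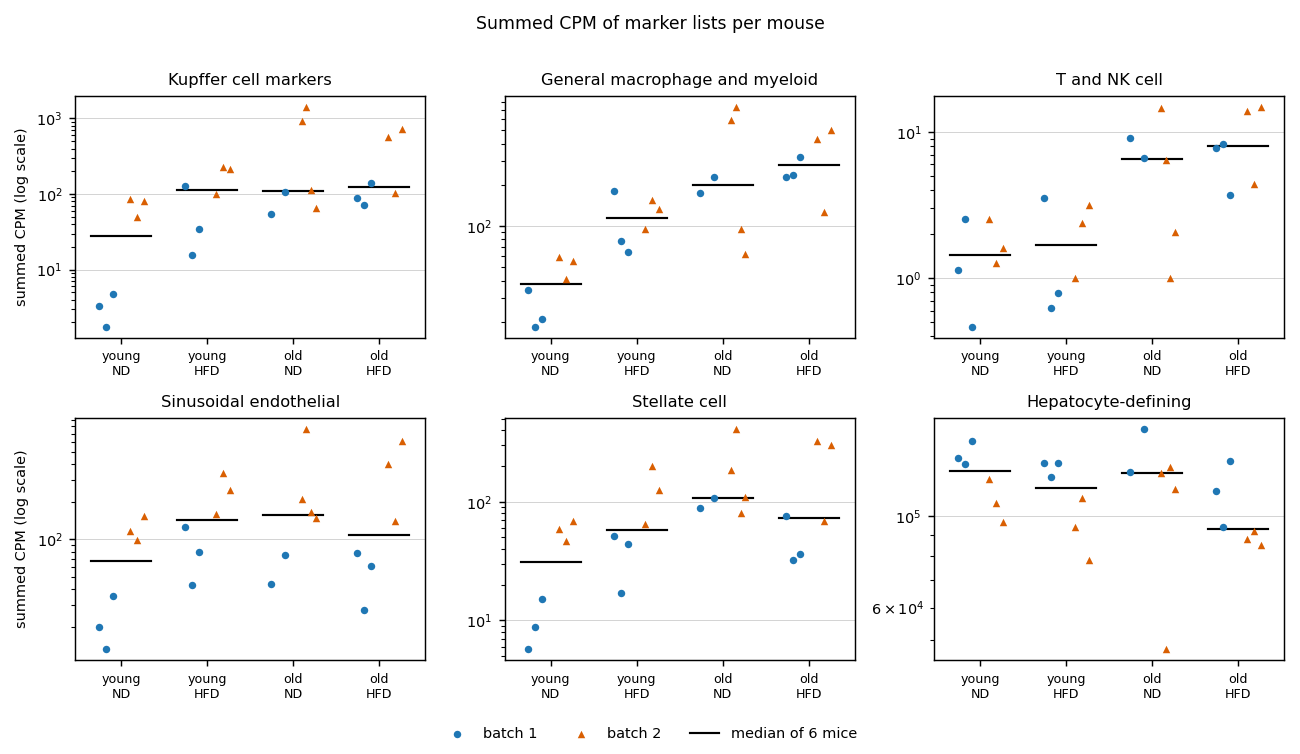
Summed CPM of 6 gene lists in each mouse (vertical axes, log scale, each panel with its own range), by group, with circles for batch 1, triangles for batch 2 and a line at the median of 6 mice. In young ND the circles lie below the triangles for Kupffer (1.75 to 4.77 against 50.1 to 87.0 CPM), endothelial and stellate sums, T and NK sums overlap between batches, and the hepatocyte sum is lowest in old ND replicate 4.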

How the data were processed

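RNA of isolated hepatocytes from 24 mice in 4 groups was measured by polyA sequencing. The authors deposited whole-number read counts per gene, made by 2-pass STAR 2.7.3a alignment to mm10, SAMtools filtering and HTSeq 0.11.2 counting. They also deposited FPKM values, which the authors computed with CuffLinks and adjusted between batches with ComBat. Over 11809 genes, log2 of FPKM times length over CPM had an SD of 0.20 with the gene's whole span as length and 1.45 with its exons, so these FPKM follow the span with introns, and levels between genes were compared as CPM per kilobase of exon. The FPKM values served as alternatives in tests and in a comparison of the batches with CPM. Strand and duplicate handling are not given in the sources used here. 0 columns lacked a sample.

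Counts were tested with edgeR 4.0.16 (R 4.3.3) using TMM, filterByExpr by group, group and batch as terms, quasi-likelihood F tests and Benjamini-Hochberg adjustment at 0.05. SE is the log2 fold change over the square root of F. Total counts of 9200332 to 22185069 per mouse set the precision, and floors of 3 counts cover counting error only. Within groups, no 2 libraries agreed within sampling noise (lowest chi-square per degree of freedom 15.2 over 60 pairs). Positions are from GENCODE annotation of GRCm38, which is mm10. Alternatives were DESeq2 1.42.0, limma 3.58.1 on log2(FPKM + 1) and log2(FPKM + 0.1), other normalization, filter, samples and covariates, each batch, and leaving out each mouse. Leaving out old ND replicates 3 and 4, the same within batch 2, and the young mice of batch 1 were chosen after seeing the data. Scripts were tested on simulated data. Ratios and figures used Python 3.11.15, scipy 1.17.1 and matplotlib 3.10.9. The markers and all gene lists were chosen with earlier results of these data known. Genes named were the 10 markers, their partners Csf1, Il34, C1ra and C1s1, Ptprc and Alb, genes of each list with the lowest adjusted p by age or by diet in young mice, the 10 genes most like the markers, and genes at 0 in a whole group.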

Additional observations from a re-analysis of the deposited data

Results flagged for a closer look

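In old HFD, Marco was far below the other 5 mice in replicate 2, at a log2 CPM of −2.96, which is a count of 0, and the log2 ratio of Cd5l to Clec4f of the same mouse was far above the others, at 2.46. These were the 2 of 52 groups of 6 mice examined, covering each marker, the summed level and both ratios, in which 1 mouse lay apart by Dixon's criterion, and chance alone marks about 1 in 20 groups.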

How the results depend on the processing

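Beside the count of markers called in an alternative stands the share of all genes called in that direction. The exception is the fits that left out single mice, for which no share is given. The number called in old ND against young ND, 10, was 8 to 10 with DESeq2, without batch, with RLE size factors, without a count filter and with only the mice compared (3.98 to 8.36% of all genes). It was 3 with limma on log2(FPKM + 1) (1.36%), 7 with log2(FPKM + 0.1) (3.36%), 6 in batch 1 alone (0.679%), and 0 in batch 2 alone, without old ND replicates 3 and 4 in all mice or in batch 2, and without the young mice of batch 1 (0.0137 to 0.417%). Leaving out single mice gave 9 to 10. In young HFD against young ND the 1 call became 9 with DESeq2 (5.87%) and with only the mice compared (10.37%), 10 without a count filter (3.36%), 3 with limma on log2(FPKM + 0.1) (1.55%) and in batch 1 (0.701%), and 4 without old ND replicates 3 and 4 (2.92%). It became 0 without batch, with limma on log2(FPKM + 1), in batch 2 with or without those mice and without the young mice of batch 1 (0.0279 to 1.16%). Leaving out single mice gave 0 to 5. For old HFD against young ND, 9 became 5 without batch (12.49%), 0 in batch 2 (2.40%) and 3 without the young mice of batch 1 (2.51%). Without a count filter, 2 markers were called lower in old HFD against old ND (1.75%), in place of 0. In old HFD against young HFD 8 were called higher (2.71%), and for the interaction 10 lower (1.51%), again in place of 0. That fit tested 32336 genes and called 587 for the interaction. Its edgeR adjusted p for the interaction went down to 6.1e-31, against 0.531 in the main fit, at close log2 values. The cause was not tested.

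Directions turned for Timd4 by age in batch 2 without old ND replicates 3 and 4 (−0.41), and for all 10 markers in the interaction in that fit. In old HFD against old ND, where no marker was called, directions turned for 7 of 10 without old ND replicates 3 and 4 and for 7 within batch 2 without them (Marco 0.85 and 1.59), for 5 in batch 1 (Marco 0.10), for 3 in batch 2 (Cd5l −0.22), for 3 without batch (Cd5l −0.44), for 3 with the replicate block, for Adgre1 with only the mice compared and without the young mice of batch 1, for 4 with limma on either FPKM scale, and for 1 to 4 on leaving out some single mice. Old HFD against young HFD turned for Clec4f in batch 1 (−0.09) and for Timd4 in batch 2 with or without old ND replicates 3 and 4 (−0.11), with the replicate block (−0.23) and without old HFD replicate 3 (−0.26). The log2 ratio of Timd4 to Clec4f by age turned to −0.27 with 1 added to each count, and over single mice left out it ran from −0.35 to 0.57, and from −0.95 to 0.11 in old HFD against old ND. For Cd5l to Clec4f these ranges were 0.69 to 0.99 by age and 0.40 to 0.76 by diet in young mice. Summed levels without the 3 C1q genes had group medians of 19.8 to 87.4 CPM.

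Same-numbered mice of different groups share only a number: their deviations correlated at over 0.1 in 21 of 36 pairs (mean 0.182, lowest −0.320), and 6 of 24 mice correlated best with their own number. With the replicate block in place of batch, 9 markers were called by age (8.13% of all genes), 0 by diet in young mice (1.07%) and 8 in old HFD against young ND (13.67%), and the old HFD against old ND value of Cd5l was −0.41. Markers with few reads, as in young ND of batch 1, limit the precision of folds against that group.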

Other observations

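In the deposited FPKM, which the authors adjusted between batches, the batch difference of the markers had the opposite direction to that in CPM. In CPM, the median of the 13 mice of batch 2 was 1.31 to 6.60 times that of the 11 mice of batch 1 for the 10 markers. In FPKM it was 0.314 to 0.865 times. For C1qa, the medians of batches 1 and 2 were 6.21 and 11.8 CPM but 7.43 and 2.73 FPKM. For Cd5l, old ND replicate 4 was the highest of all mice in CPM, and old HFD replicate 3, a mouse of batch 1, was the highest in FPKM, at 11.5.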
